A study of Mus musculus with 6 samples.

Results

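The genes described here are the mouse zinc finger genes numbered Zfp600 to Zfp999. They were taken by symbol: each probe set annotated to exactly 1 gene with such a symbol counts as a member, leaving out Zfp638 and Zfp874a. That gave 249 of the 45037 probe sets on the array, for 139 of 18193 named genes. They were measured in whole brains of 6 male mice aged 2 months, with 1 Affymetrix array per brain. Of these mice, 3 were heterozygous for a periphilin knockout (periphilin+/-) and 3 were C57BL/6 wild-type littermates, and the RNA came from frozen tissue. No source used here says where the periphilin gene, Pphln1, is disrupted. Whole-brain RNA mixes all cell types, and in such bulk tissue fewer cells of a type and less RNA per cell cannot be told apart.

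Most genes with the Zfp symbol encode proteins that read DNA through arrays of zinc-binding fingers. Many also carry a KRAB domain, which recruits TRIM28, and through it the histone methyltransferase SETDB1, to silence retroelements and other targets in the genome. Periphilin is a subunit of the HUSH complex, a silencing complex that also works with SETDB1 and that is known to occupy clustered zinc finger genes, which makes these genes possible HUSH targets. The number in a symbol is a catalogue number and says nothing of function, so the members are a mixture. Zfp622, for example, is a factor of ribosome assembly, whereas Zfp809 is a KRAB repressor of murine leukaemia proviruses.

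The members are spread over 19 chromosomes, with 34 genes on chromosome 7, 22 on chromosome 17, 14 on chromosome 8 and 11 on chromosome 13. Zinc finger genes of this kind arose by local duplication, and many lie side by side. With at most 2 other protein-coding genes allowed between consecutive members, 50 of the 138 placed genes lay in 12 runs of 3 or more. The longest run, on chromosome 17, held 11 genes, from Zfp948 and Zfp983 to Zfp758 and Zfp946. Such paralogs share sequence, so a probe set can bind transcripts of a relative. Of the member probe sets, 17 have a name ending in _x_at and 6 one ending in _s_at, endings the manufacturer gives to probe sets with probes that may match other transcripts. A further 19 probe sets assigned to several genes including a member were not used.

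The starts of the members were examined in RefSeq windows of 300 bases (assembly GRCm38.p6), 250 before and 50 after each annotated start. There were 149 windows for 122 of the 139 genes. A member window held a median of 13 CpG dinucleotides, against 16 in the windows of the lower-numbered genes Zfp1 to Zfp599. The median was 13 in the windows of all protein-coding genes and 7 in all windows. The letters CCAAT, searched on both strands, occurred in 53.0% of member windows, 38.2% of protein-coding windows and 37.4% of all windows. The windows of Zfp1 to Zfp599 held them in 36.8%. TATAAA occurred in 4.70% of member windows, against 8.11% of those of Zfp1 to Zfp599, 12.6% of protein-coding and 13.6% of all windows. GGGCGG occurred in 46.3% of member windows, against 47.6%, 46.2% and 35.7% in the same order. The motif known to be bound by ZNF143 occurred in 4 member windows (2.69%), those of Zfp606, Zfp607b, Zfp691 and Zfp692, in 5.41% of those of Zfp1 to Zfp599, and in 1.39% of protein-coding and 0.950% of all windows. No searched motif lies within another, and a match is a description of the letters only. Shown here is the stretch before the outermost annotated start for 3 members, with CpG dinucleotides in capitals. They are 3 of the 6 members with an unadjusted limma p below 0.05, given below, and none passed after adjustment. Zfp983 is at chr17:21650361-21650571 (plus strand), Zfp692 at chr11:58306819-58307056 (plus strand) and Zfp770 at chr2:114201433-114201682 (minus strand).
Zfp983: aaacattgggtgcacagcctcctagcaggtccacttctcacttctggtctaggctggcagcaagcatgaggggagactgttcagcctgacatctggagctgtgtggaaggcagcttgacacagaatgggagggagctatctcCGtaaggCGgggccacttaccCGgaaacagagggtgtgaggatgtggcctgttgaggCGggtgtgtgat
Zfp692: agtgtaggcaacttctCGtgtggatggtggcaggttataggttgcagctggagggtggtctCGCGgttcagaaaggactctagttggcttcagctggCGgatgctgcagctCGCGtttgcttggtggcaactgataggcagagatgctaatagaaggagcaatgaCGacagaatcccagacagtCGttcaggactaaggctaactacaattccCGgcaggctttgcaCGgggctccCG
Zfp770: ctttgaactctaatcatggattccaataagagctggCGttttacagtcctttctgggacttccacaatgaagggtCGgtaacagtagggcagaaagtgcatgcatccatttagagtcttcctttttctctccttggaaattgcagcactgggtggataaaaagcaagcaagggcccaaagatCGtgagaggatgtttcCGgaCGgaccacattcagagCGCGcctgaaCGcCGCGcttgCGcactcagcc
The Zfp983 stretch holds 4 CpG dinucleotides, and those of Zfp692 and Zfp770 hold 11 each. CCAAT or its reverse complement is found in the stretches of Zfp983 and Zfp770, and the ZNF143 motif in that of Zfp692.

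Signals are linear intensities as the authors deposited them. They depend on the probes, so the level of one probe set is not set against that of another. A probe set was tested if its mean on the log2(intensity + 16) scale lay above the 40th percentile of all probe sets, a signal of 18.4. By that limit 187 of the 249 member probe sets (75.1%) were measured, for 125 of the 139 genes, against 60% of all probe sets. Zfp1 to Zfp599 passed at 277 of 358 probe sets (77.4%). The 14 genes with no probe set above the limit were Zfp616, Zfp735, Zfp750, Zfp773, Zfp786, Zfp819, Zfp820, Zfp873, Zfp879, Zfp936, Zfp957, Zfp972, Zfp980 and Zfp982. Zfp750 is known as an epidermal differentiation factor and Zfp819 as a gene of pluripotent cells. Among tested members the median signal was 71.4 (quartiles 40.3 and 137.3), given only to place the values below. The 6 neuron, 5 astrocyte and 4 oligodendrocyte markers on the array all lay above the limit, each by its brightest probe set. So did all 6 pituitary markers, and passing the limit does not by itself identify the tissue. Array medians ranged from 31.2 to 34.5, and the number of arrays limits the precision.

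No member passed the test between genotypes. With limma and Benjamini-Hochberg adjustment over all 27022 tested probe sets, 0 of 187 member probe sets were called at 0.05, where 0.0148% of all probe sets were. The lowest adjusted p of a member was 0.956. Without adjustment, limma gave a p below 0.05 at 6 members (3.21%), against a background of 4.83% of all tested probe sets, so the members' share lay below it. Of the 6, 3 were higher in heterozygous brains (2.43% of all probe sets were) and 3 lower (2.4% of all). The genotypes did not overlap at 19 member probe sets (10.2%), 6 higher and 13 lower, where the background is 10.2% (5.43% higher and 4.81% lower). Zfp1 to Zfp599 also had more lower than higher, with no overlap at 31 of 277 probe sets (11.2%), 11 higher and 20 lower. By sign alone, 76 members were higher and 111 lower (40.6% higher), where 52.3% of all tested probe sets and 46.9% of those of Zfp1 to Zfp599 were higher. A log2 difference of 0.5 or more in size was seen at 1 member, Zfp712 (0.535%), against 1.78% of all tested probe sets. For 136 of the 187 the 95% confidence interval lay within 1.5-fold either way on the log2(intensity + 16) scale, and for 183 within 2-fold. That scale shrinks the fold changes of dim genes.

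**Figure D1:**
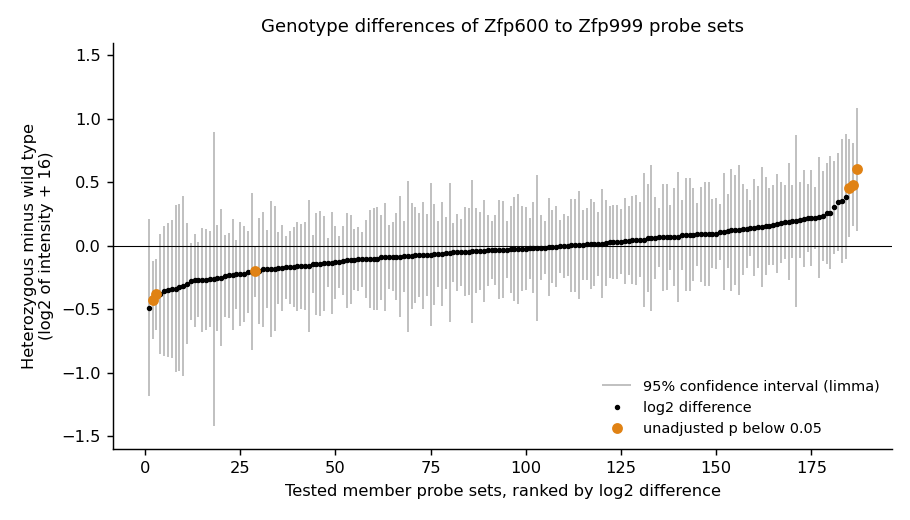
Log2 difference, heterozygous minus wild type, of log2(intensity + 16) for the 187 tested member probe sets, ranked along the horizontal axis, with 95% confidence intervals as grey lines (3 brains per genotype). The 6 orange points had an unadjusted p below 0.05, and no point passed after adjustment.

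The 6 members at an unadjusted p below 0.05 are given brain by brain, as values that missed the adjusted threshold. Zfp983, a gene of the chromosome 17 run, measured 101.6, 91.4 and 74.0 in heterozygous brains 1, 2 and 3 and 54.5, 62.8 and 59.3 in wild-type brains 1, 2 and 3 at 1440992_at. Each heterozygous value lay above each wild-type value, and the log2 difference was 0.48 (SE 0.15, limma adjusted p = 0.956). The exact permutation p was 0.1, the smallest that 3 against 3 brains can give. The other tested Zfp983 probe sets lay at -0.017 (SE 0.16) and 0.26 (SE 0.20).

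Zfp712 measured 27.8, 31.3 and 44.8 in heterozygous and 14.2, 26.5 and 12.1 in wild-type brains at 1430212_at. The genotypes did not overlap, but wild-type 2, at 26.5, lay close to the heterozygous values and the other wild-type signals fell under the dim limit. The log2 difference was 0.60 (SE 0.22, limma adjusted p = 0.956). It came to 0.27 with 64 as the pseudocount and to 0.99 with 1. Its second probe set, 1440778_x_at, lay at -0.082 (SE 0.19).

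Zfp692, which encodes a DNA-binding repressor linked to glucose metabolism, measured 289.7, 195.2 and 222.6 in heterozygous and 216.2, 154.3 and 134.7 in wild-type brains. The groups overlapped, since wild-type 1 exceeded heterozygous 2, and the log2 difference was 0.46 (SE 0.18, limma adjusted p = 0.956).

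On the lower side, Zfp825 measured 76.9, 64.7 and 74.8 in heterozygous and 106.1, 89.4 and 113.2 in wild-type brains at 1425297_at. The genotypes did not overlap, and the log2 difference was -0.43 (SE 0.14, limma adjusted p = 0.956). Its second tested probe set, 1451654_x_at, lay at -0.054 (SE 0.25) and spread from 66.7 to 133.9. Zfp825 was named after its values were seen.

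Zfp644 encodes a partner of the histone methyltransferases Ehmt1 and Ehmt2. At 1419984_s_at it measured 339.0, 413.4 and 449.1 in heterozygous and 560.2, 573.7 and 447.6 in wild-type brains. Wild-type 3 fell within the heterozygous range, and the log2 difference was -0.38 (SE 0.13, limma adjusted p = 0.956). The other tested Zfp644 probe sets differed among themselves. With a mean signal of 463.7, 1429623_at was almost as bright as 1419984_s_at (463.8) and lay on the other side, at 0.22 (SE 0.12). The probe set 1436985_at lay at -0.13 (SE 0.088) without overlap between genotypes, 1439769_at at -0.34 (SE 0.25) and 1449691_at at 0.11 (SE 0.21). The place of Zfp644 among the lowest genes thus rests on which of the 2 brightest probe sets stands for it.

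Zfp770 had the tightest values of the 6 at 1434682_at, with 305.1, 299.6 and 332.0 in heterozygous and 365.2, 350.5 and 368.3 in wild-type brains. The genotypes did not overlap, and the log2 difference was -0.20 (SE 0.091, limma adjusted p = 0.956), a ratio of 0.869. Its dimmer second probe set lay at 0.12 (SE 0.22).

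**Figure D2:**
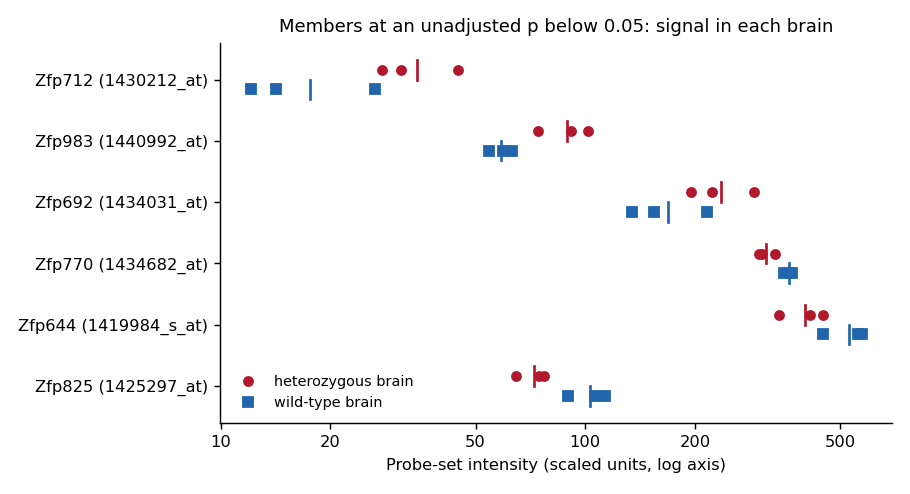
Intensity in each brain (log axis) of the 6 member probe sets with an unadjusted p below 0.05, with heterozygous brains as red circles, wild-type brains as blue squares and short vertical lines for the means of 3. Zfp983, Zfp712, Zfp825 and Zfp770 show no overlap between genotypes, while Zfp692 and Zfp644 overlap.

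Of the remaining members highest by moderated t, Zfp809 came next. It binds the primer site of murine leukaemia viruses and starts their silencing through TRIM28. It measured 166.4, 183.8 and 176.3 in heterozygous and 160.8, 139.4 and 145.7 in wild-type brains, without overlap. The log2 difference was 0.22 (SE 0.11), its interval ran from -0.024 to 0.46, and its limma adjusted p was 0.956. Zfp691 lay at 0.30 (SE 0.17), with wild-type values of 56.6, 56.5 and 56.1 and heterozygous values of 58.6, 70.6 and 94.0. Its genotypes did not overlap, but heterozygous 1 sat next to the wild-type brains. Zfp882, at 0.38 (SE 0.22), and Zfp944, at 0.35 (SE 0.22), overlapped between genotypes. On the lower side Zfp942 measured 138.4, 202.3 and 177.1 in heterozygous and 229.7, 203.3 and 200.6 in wild-type brains. Heterozygous 2 lay within the wild-type range, and the difference was -0.28 (SE 0.14). Zfp868 measured 137.8, 172.7 and 201.3 against 200.4, 200.2 and 220.0, with heterozygous 3 level with the wild-type brains, and lay at -0.27 (SE 0.13). In both genes the lowest brain was heterozygous 1. Zfp672 lay at -0.22 (SE 0.12) and Zfp870 at -0.38 (SE 0.21), again with overlap and heterozygous 1 lowest. None of the 4 passed the test.

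Apart from those already given, several members had genotypes that did not overlap, named after their values were seen. Zfp707, on chromosome 15, measured 46.1, 47.0 and 44.7 in heterozygous and 27.3, 42.8 and 29.5 in wild-type brains at 1441842_s_at, a difference of 0.35 (SE 0.17) with a limma adjusted p of 0.956. Wild-type 2 lay just under the heterozygous brains, and the second Zfp707 probe set lay at 0.0072 (SE 0.19). Zfp956 measured 90.2, 85.2 and 105.4 in heterozygous and 78.1, 81.0 and 81.2 in wild-type brains, at 0.19 (SE 0.13). On the lower side Zfp729a measured 26.8, 35.3 and 33.5 against 38.6, 46.8 and 40.1 at 1440125_at and lay at -0.27 (SE 0.17). Zfp719 measured 44.4, 49.6 and 45.4 against 63.2, 56.2 and 54.0 at 1443985_at and lay at -0.24 (SE 0.15). Their gaps between genotypes were a few units of intensity wide. Other tested probe sets overlapped between genotypes, for Zfp729a at 0.044 (SE 0.16) and -0.085 (SE 0.22) and for Zfp719 at -0.075 (SE 0.15). The tightest member of all, Zfp799, measured 186.7, 193.7 and 191.8 against 211.1, 209.1 and 199.0, at -0.11 (SE 0.099) with a residual SD of 0.035. Zfp800 at 1443108_at measured 38.0, 34.9 and 35.9 against 46.7, 44.2 and 45.6, at -0.23 (SE 0.15). Both had separate genotypes at a small difference, and limma's shrinkage towards the variance trend at their intensity gave them wider errors than their own spread. The lower members Zfp647, Zfp655 (at 1431252_a_at), Zfp839 and Zfp853 lay at -0.11 (SE 0.11), -0.13 (SE 0.13), -0.17 (SE 0.13) and -0.27 (SE 0.19). The other tested Zfp655 probe sets overlapped between genotypes, the brightest, 1428341_at, at -0.030 (SE 0.10) and 1429217_at at 0.15 (SE 0.14).

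Members with a described role in silencing or in disease mostly lay near 0. Zfp932, a KRAB repressor of endogenous retroviruses in embryonic stem cells, measured 247.0, 237.7 and 284.9 in heterozygous and 258.5, 254.3 and 275.2 in wild-type brains. The groups overlapped, and the log2 difference was -0.035, its interval running from -0.26 to 0.19, with a limma adjusted p of 0.985. Zfp961, which binds a primer site of retroviruses, lay at -0.075 (SE 0.19), and Zfp661, known to act near the clustered protocadherin genes, at -0.010 (SE 0.17). Zfp708, a KRAB protein known to act on a retroelement family in oocytes and embryos, lay at -0.34 (SE 0.30), a value set by heterozygous 1: it measured 5.97 there and 26.01 to 41.2 in the other brains, and the difference without that brain was 0.036.

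Among genes of neural or disease interest, Zfp804a, whose human counterpart is associated with schizophrenia, measured 155.0, 201.7 and 224.2 in heterozygous and 181.7, 221.7 and 190.6 in wild-type brains. Its log2 difference was -0.040 (SE 0.14). The second Zfp804a probe set lay at -0.18 (SE 0.14) with no overlap, from 56.1 to 64.8 in heterozygous and 68.5 to 76.1 in wild-type brains. Zfp711, an X-linked gene of intellectual disability in humans, lay at -0.028 (SE 0.16), and the corepressor gene Zfp703 at -0.10 (SE 0.17). Zfp687, mutated in Paget disease of bone, lay at 0.096 (SE 0.13), and Zfp618, a partner of the DNA-modification reader Uhrf2, at 0.013 (SE 0.16) by its brightest probe set. None of these passed the test.

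The members with the brightest probe sets had narrow intervals. Zfp622 measured 1608, 1497 and 1598 in heterozygous and 1244, 1619 and 1420 in wild-type brains at 1438000_x_at, which overlapped. The log2 difference there was 0.14 (SE 0.10), and the limma adjusted p was 0.956. The other tested Zfp622 probe sets lay at -0.053 (SE 0.11), -0.23 (SE 0.20) and 0.15 (SE 0.22). Zfp871 lay at -0.17 (SE 0.11), and its other tested probe sets at -0.11 (SE 0.11) and -0.13 (SE 0.093). Zfp771 lay at 0.065 (SE 0.10) at 1440817_x_at, and at 0.030 (SE 0.13) and -0.083 (SE 0.27) at its other tested probe sets. Zfp931 lay at -0.050 (SE 0.12) at 1427349_x_at, and Zfp664 at -0.14 (SE 0.10), with -0.31 (SE 0.32) at 1437047_at. The _x_at probe sets of Zfp622, Zfp771 and Zfp931 may also match other transcripts.

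Several probe sets of 1 gene often disagreed in sign. Of the 44 member genes with 2 or more tested probe sets, 16 had the same sign at all of them and 28 did not. The gap between probe sets of a gene was widest for Zfp944, where 1425085_at lay at 0.35 and 1437911_at at -0.36 (SE 0.22 and 0.23). Zfp712 and Zfp644, given above, came next. Zfp618 followed, with 1453247_at at -0.49 (SE 0.32) beside 0.013 at its brightest probe set. The Zfp618 value at 1453247_at was the most negative of all tested members and rested on dim signals: 3.14, 33.9 and 15.4 in heterozygous and 20.5, 24.9 and 39.4 in wild-type brains.

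Over the list as a whole, the median log2 difference was -0.031 for the 187 probe sets (quartiles -0.14 and 0.078), against 0.0084 for all tested probe sets and -0.013 for Zfp1 to Zfp599. With each gene represented by its brightest tested probe set, 52 member genes were higher and 73 lower in sign, with a median of -0.030, against 0.0067 for all 13024 genes. The difference between these medians was smaller than the SD of 0.073 of the per-brain member median within a genotype. That SD is of single brains and not relative to all genes, so it does not measure the error of that difference. The sign of the member median rested on 1 brain: without heterozygous 1 it was 0.013, against 0.0053 for all genes. With any other brain left out, it stayed between -0.048 and -0.012.

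That brain gave the lowest of the 6 signals at 57 of the 187 tested member probe sets (30.5%), against 18.6% of all tested probe sets and 22.7% of Zfp1 to Zfp599. It gave the highest at 24 (12.8%), against 22.2% of all tested probe sets and 18.4% of Zfp1 to Zfp599. The summed member signal was 21258 in heterozygous 1 and 22121 to 22520 in the other brains. The same array had the highest median intensity, 34.5 against 31.2 to 33.2. Its summed marker signals were the highest for neurons (25387 against 22699 to 23479), astrocytes (8828 against 7289 to 8717), oligodendrocytes (15355 against 13024 to 14652), choroid plexus (12181 against 9251 to 10718) and skeletal muscle (265 against 118 to 178). They were the lowest for endothelium, 482 against 568 to 624. Alone among the marker sums, that of skeletal muscle, with 2 of 4 markers above the dim limit, did not overlap between genotypes. It was 156 to 265 in heterozygous and 118 to 155 in wild-type brains. The nearest brains, heterozygous 3 at 156.35 and wild-type 2 at 155.28, almost met. Of all tested probe sets, 10.2% showed no overlap. Wild-type 1 gave the highest signal at 41 members (21.9%), against 16.8% of all tested probe sets and 21.7% of Zfp1 to Zfp599, and its summed signal of the 6 pituitary markers was 21234, against 185 to 6709 in the other brains. The part of these in the member signals was not tested.

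**Figure D3:**
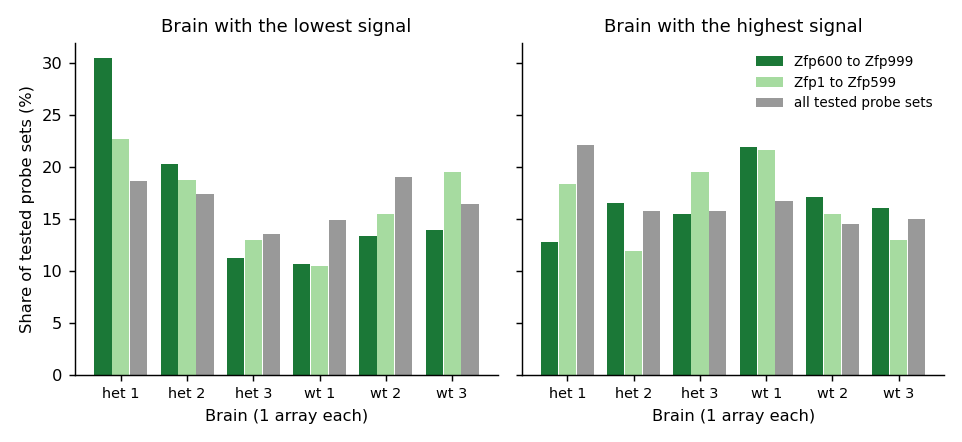
Share of tested probe sets, in percent, for which each of the 6 brains gave the lowest (left) or highest (right) signal, for members (dark green), Zfp1 to Zfp599 (light green) and all tested probe sets (grey). Heterozygous 1 was lowest at 30.5% of members and at 18.6% of all tested probe sets.

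The spread between brains of the same genotype was described by the residual SD of the fit. Its median was 0.18 on the log2 scale for members (quartiles 0.13 and 0.26), against 0.17 for all tested probe sets (0.11 and 0.24) and 0.17 for Zfp1 to Zfp599. An SD of 0.5 or more was reached by 6 members (3.21%), against 2.10% of all tested probe sets. The widest was 1437128_a_at of Zfp945, with an SD of 1.0. It measured 2.33, 8.25 and 59.2 in heterozygous and 27.6, 3.30 and 52.3 in wild-type brains. Heterozygous 3 and wild-type 1 and 3 were high and the other 3 brains low, so both genotypes held both levels. The second tested Zfp945 probe set, 1437127_at, ran from 26.3 to 44.5, with the low and high sets of brains exchanged. Heterozygous 3 and wild-type 1 and 3 were its 3 lowest brains, though its widest gap set heterozygous 1 apart from the rest. Zfp945 was named after its values were seen.

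Other members with a wide spread mostly had a single low or high brain. Zfp664 at its dimmer probe set, 1437047_at, measured 3.10 in heterozygous 1 and 20.7 to 36.6 elsewhere. Zfp994 measured 11.7 in heterozygous 2 and 36.4 to 58.2 elsewhere. Zfp626 measured 7.30 in heterozygous 2 and 45.6 in heterozygous 1, with the other brains from 15.97 to 26.6. The probe set 1456574_at of Zfp800 split the brains again, at 35.8, 86.2 and 39.5 in heterozygous and 74.0, 76.8 and 37.9 in wild-type brains. The highest signal there was 2.41 times the lowest, against 1.18 to 1.92 times at the 5 other tested Zfp800 probe sets.

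**Figure D4:**
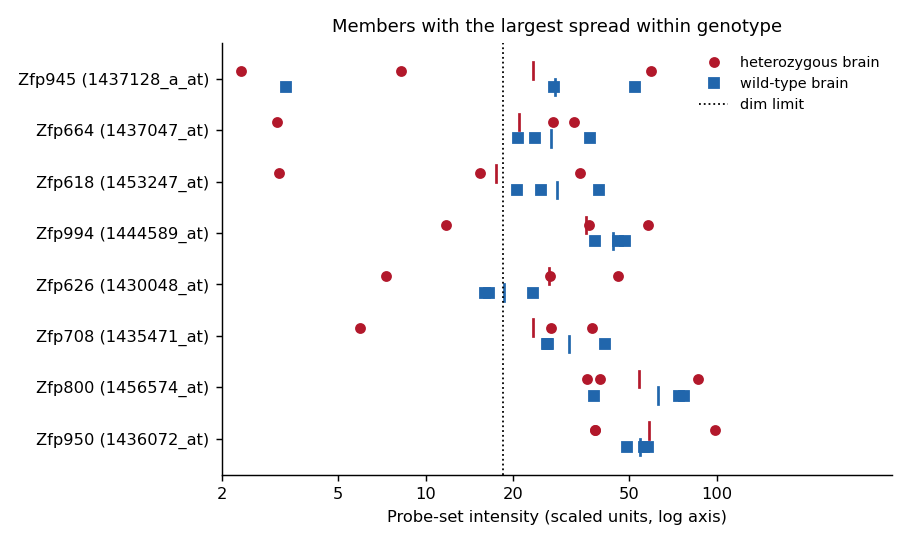
Intensity in each brain (log axis) of the 8 tested member probe sets with the largest SD within genotype, with heterozygous brains as red circles, wild-type brains as blue squares, short lines for means of 3 and a dotted line at the dim limit of 18.4. Zfp945 shows 3 low and 3 high brains, each set holding both genotypes.

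By position, the longest run of neighbouring genes held both signs. The chromosome 17 run of 11 genes had 10 measured genes and 14 tested probe sets, 4 higher and 10 lower in sign, with a median log2 difference of -0.059 and a range of -0.36 to 0.48. Zfp983, at the upper end of that range, lies between Zfp948, at -0.052 (SE 0.14), and Zfp760, at -0.066 (SE 0.12). The next highest value of the run was 0.35, at the Zfp944 probe set given above. The single probe set of the run at an unadjusted limma p below 0.05 was that of Zfp983 (7.14% of the 14, against 4.83% of all tested probe sets). Probe sets of genes in runs of 3 or more had a median of -0.066 (61 tested, 22 higher and 39 lower in sign). Those of genes in runs of 2 had 0.032 (27 tested, 19 higher and 8 lower), and those of genes with no neighbouring member -0.043 (98 tested, 35 higher and 63 lower). A further run of 4 genes on chromosome 17, Zfp871, Zfp811, Zfp799 and Zfp870, had 2 probe sets higher and 5 lower in sign (median -0.11). None of its probe sets reached an unadjusted p below 0.05.

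**Figure D5:**
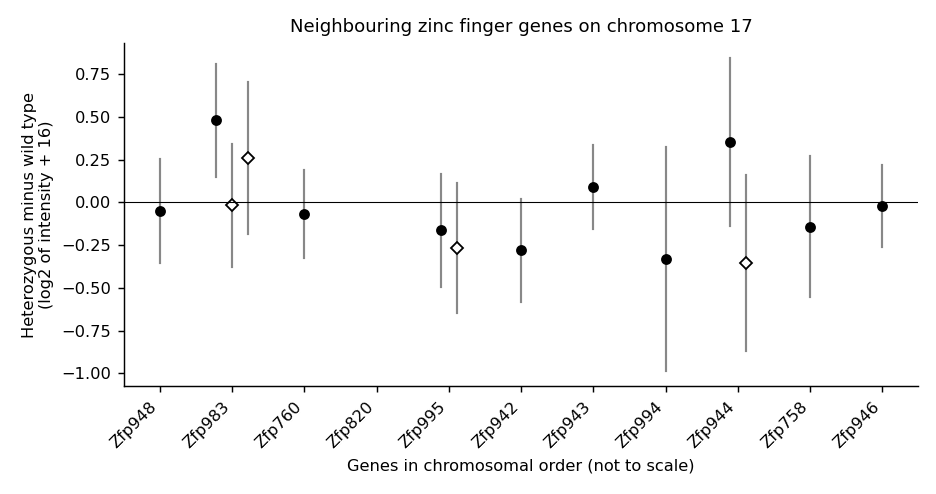
Log2 difference, heterozygous minus wild type, with 95% confidence intervals for the tested probe sets of the 11 neighbouring members on chromosome 17, in gene order, with filled circles for the brightest probe set of a gene and open diamonds for others. Zfp983 has the highest value, 0.48, and Zfp820 has no probe set above the dim limit.

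Chromosome 15 carries Pphln1 and 5 members, none near it: the closest, Zfp740, had 151 protein-coding genes between. Zfp740 measured 161.2, 122.0 and 169.5 in heterozygous and 149.1, 127.2 and 119.4 in wild-type brains, with overlap, at 0.17 (SE 0.14). Zfp623 lay at -0.085 (SE 0.13) and Zfp647 at -0.11 (SE 0.11). Of the 9 tested probe sets of the 5 genes, 5 were higher and 4 lower in sign (median 0.0072), and none had an unadjusted p below 0.05. Chromosome 7, with the most members, had 43 tested probe sets with a median of -0.0026 (21 higher and 22 lower in sign) and none at an unadjusted p below 0.05. Chromosome 8 likewise had none among 19 tested probe sets of 14 genes (median -0.0078). The most one-sided of the chromosomes with over 10 tested probe sets was chromosome 5, home of Zfp644, Zfp664 and Zfp932, with 3 higher and 10 lower in sign and a median of -0.13. On chromosome 13, home of Zfp712, Zfp708 and Zfp825, 6 of 16 tested probe sets were higher and 10 lower (median -0.077). By limma 2 of the 16 had an unadjusted p below 0.05 (12.5%, against 4.83% of all tested probe sets). They were the Zfp712 and Zfp825 probe sets given above, and the second tested probe sets of these genes lay at -0.082 and -0.054.

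The genes through which KRAB zinc finger proteins silence were measured alongside. Of 25 such genes on the array, 23 were tested by 53 probe sets. None was called by limma after adjustment, and 3 probe sets had an unadjusted p below 0.05 (5.66%, against 4.83% of all): Setdb1 at 0.36 (SE 0.13), Cbx5 at 1421934_at at -0.39 (SE 0.15) and Morc3 at 1420091_s_at at -0.37 (SE 0.12). Other tested probe sets of these genes lay nearer 0: Setdb1 at 0.20 (SE 0.18), Cbx5 at -0.091 (SE 0.17), 0.090 (SE 0.10) and -0.12 (SE 0.11), and Morc3 at -0.29 (SE 0.21) and -0.10 (SE 0.12). The Setdb1 probe set at 0.20 was higher in each heterozygous brain, while the one at 0.36 overlapped between genotypes. In all, 7 of the 53 probe sets (13.2%, against 10.2% of all) showed no overlap, 3 higher and 4 lower. Trim28, the KRAB corepressor, measured 901.5, 792.3 and 853.8 in heterozygous and 877.8, 763.7 and 874.6 in wild-type brains at 1456308_x_at. The groups overlapped, with a difference of 0.019 (SE 0.091), or -0.016 with median centring. Of the HUSH subunit genes, Tasor lay at 0.052 (SE 0.12) and Mphosph8, by its brightest probe set, at -0.060 (SE 0.085). Morc2a, whose ATPase acts with HUSH, measured 154.7, 173.8 and 161.2 in heterozygous and 133.9, 142.4 and 138.4 in wild-type brains, without overlap (0.22, SE 0.11, limma adjusted p = 0.956). Pphln1 measured 352.8, 269.2 and 337.5 in heterozygous and 294.9, 290.2 and 314.0 in wild-type brains at 1434822_at, overlapping, and 30.6, 44.4 and 36.6 against 63.2, 47.3 and 46.3 at 1435766_at. Its signal thus did not separate the genotypes at the first probe set and lay lower in each heterozygous brain at the second, where the limma adjusted p was 0.956.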

How the data were processed

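The authors deposited 1 table of linear probe-set intensities for 6 arrays. Not given in the sources used here: the summarising software. The central 96% of values averaged 150.0 on every array, so the values had been scaled. Symbols came from the platform annotation and were updated to the RefSeq symbol (GRCm38.p6) where the Entrez identifier matched. Those of all 249 member probe sets matched, and the update changed none of their symbols. Intensities were taken as log2(intensity + 16). The 18015 probe sets at or below the 40th percentile were left out, and 27022 were fitted with limma 3.58.1 in R 4.3.3 (lmFit, then eBayes with an intensity trend, no covariate, two-sided, Benjamini-Hochberg). Single values also had two-sided exact permutation tests. The fit was tested on simulated data. Genes named were the 6 highest and 6 lowest by moderated t (brightest tested probe set of a gene), the 6 brightest, the 4 with the widest spread within genotype, the 4 whose probe sets differed most, members of described role and HUSH-linked genes, and any other gene was named after its values were seen. Members and lists were chosen with earlier results of these data known. A planned grouping by KRAB motif was not made, since protein sequences were not used here. Alternatives were normalization, pseudocount, dim filter, moderation, replicate block, probe-set type, symbols and leaving out each array.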

Additional observations from a re-analysis of the deposited data

How the results depend on the processing

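In each of the 17 refits and selections tried, no member passed the adjusted threshold by limma, and the lowest adjusted p of any member was 0.547, with the replicate block. The count at an unadjusted p below 0.05 was 6, and 5 to 8 under the other settings. It was 5 to 10 with 1 array left out; the 10, without heterozygous 3, were 5.35% of tested members, where 5.41% of all probe sets were counted. The median log2 difference of member genes ran from -0.065 (median centring, where all genes had -0.028) to -0.015, and from -0.048 to 0.013 with 1 array left out. The median SD within genotype was 0.22 with a pseudocount of 1, 0.12 with 64, 0.19 without the dim filter, 0.15 with the 60th percentile filter, 0.16 with the replicate block and 0.16 to 0.18 with 1 array left out. With the 60th percentile filter 83 genes were measured. Same-numbered brains deviated together at correlations of 0.082, 0.20 and -0.018, and differently numbered ones at -0.16 to 0.085. With 3 brains per genotype these values cannot decide whether the numbers pair the brains. The title of the first heterozygous array carries no numeral, and its number 1 was given in accession order, so its place in these correlations and in the block is only nominal. With the replicate block 8 members had an unadjusted p below 0.05, 4.28% against 7.01% of all probe sets.

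Of 39 named values, 23 kept their sign in all 13 refits made for them, among them the 6 at an unadjusted p below 0.05. With median centring Trim28 moved to -0.016 and Zfp618 to -0.022. With 1 array left out, the sign changed for values near 0 or resting on 1 brain: Tasor (-0.011 to 0.13), Trim28 (-0.046 to 0.067), Zfp618 (-0.091 to 0.11), Zfp626 (-0.13 to 0.57), Zfp661 (-0.15 to 0.062), Zfp703 (-0.32 to 0.064), Zfp708 (-0.60 to 0.036), Zfp711 (-0.21 to 0.074), Zfp712 at 1440778_x_at (-0.20 to 0.13), Zfp771 (-0.011 to 0.16), Zfp804a (-0.15 to 0.10), Zfp931 (-0.16 to 0.055), Zfp932 (-0.11 to 0.014), Zfp945 (-0.87 to 0.15), Zfp961 (-0.19 to 0.11) and Zfp994 (-0.65 to 0.061). The cause was not tested. Dim members, near the limit of 18.4, limit what this array can show.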
